A study of Mus musculus with 8 samples.

Results

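The 10 genes described here encode proteins that salt-inducible kinases (SIKs) phosphorylate and the transcription factors those proteins bind: the CREB-regulated transcription coactivators *Crtc1*, *Crtc2* and *Crtc3*, the class IIa histone deacetylases *Hdac4*, *Hdac5*, *Hdac7* and *Hdac9*, and the myocyte enhancer factors *Mef2a*, *Mef2c* and *Mef2d*. They were chosen by name, and all 10 of 10 were found among the 55401 genes listed for each kidney. RNA-Seq was performed on whole kidneys of 4 control and 4 SIK mutant mice, to learn what loss of renal SIKs does to kidney transcripts. Per the labels, both groups carried the genotype SIK1f/f;SIK2f/f,SIK3f/f, that is, loxP-flanked (floxed) alleles of the SIK genes, and the mutants additionally carried Six2-Cre. Six2-Cre recombines floxed alleles in nephron progenitors and thus in the nephron epithelium that descends from them, while endothelial, stromal, blood and collecting duct cells of the same kidney keep intact alleles. The study's text describes surviving mutants as having 1 floxed and 1 intact *Sik1* allele, which differs from the labels, and the name SIK mutant is used here for either. The controls were Cre-negative littermates according to the study, no treatment was given in the labels, and the labels state no age, sex or litter.

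SIKs phosphorylate CRTC coactivators and class IIa HDACs, and the phosphorylated proteins are held in the cytoplasm by 14-3-3 proteins. When SIK activity falls, as it does when parathyroid hormone raises cyclic AMP in the kidney tubule, the dephosphorylated CRTCs enter the nucleus and assist CREB, and the dephosphorylated class IIa HDACs enter the nucleus and repress MEF2 factors. This control acts on the proteins, and RNA-Seq measures only the transcripts of their genes, so neither phosphorylation nor location in the cell was measured.

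The libraries held 10179648 to 10925100 expected counts, and the smallest level taken as detectable, 3 counts, was 0.263 to 0.304 CPM (counts scaled to library size with TMM normalization factors). None of the 3 floxed genes had an FDR under 0.05. *Sik3* CPM was 58.6, 66.5, 65.7 and 61.0 in controls and 41.4, 39.7, 43.1 and 33.7 in SIK mutants (log2 fold change −0.67, edgeR FDR = 0.0697), *Sik2* lay between 7.97 and 9.95 in controls and between 4.50 and 9.30 in mutants (FDR = 0.794), and *Sik1* lay between 36.8 and 43.1 in controls and between 43.4 and 54.1 in mutants (FDR = 0.601). Whole-gene counts include exons outside the floxed segments and transcripts of cells without Cre. Control replicates 3 and 4 held almost no reads of 4 Y-linked genes, at most 0.0875 CPM, while each of these genes was at 10.97 CPM or more in the other 6 kidneys, so the genotype differences of the members are also given for those 6 (2 controls and 4 mutants). The 2 controls kept there also differed from the mutants in cell type markers. Summed CPM of 6 adipocyte markers was 0 and 4.05 in them and 114.0 to 191.8 in mutants. In those 6 kidneys, genotype thus cannot be told apart from other properties of these 2 controls.

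Windows around the transcription starts of the members were read for the sites that CREB and MEF2 recognize, since CRTCs and class IIa HDACs act through those factors. RefSeq windows (GRCm38.p6) of 250 bases before to 50 bases after the start were at hand for 9 of the 10 members, 15 windows in all, and not for *Crtc2*. A CRE half-site, TGACG read on both strands, was in 2 of the 15 windows and in 20.8% of all 32851 windows. The full CRE, TGACGTCA, which contains the half-site, was in 0 of the 15 and in 1.79% of all windows. A MEF2 site read on both strands was in 2 of the 15 and in 3.19% of all. The windows with matches are shown because they hold every match among the members, written 5′ to 3′ along the gene's own strand with the matches in capitals.
*Mef2a* (chr7:67372809-67373108, minus strand): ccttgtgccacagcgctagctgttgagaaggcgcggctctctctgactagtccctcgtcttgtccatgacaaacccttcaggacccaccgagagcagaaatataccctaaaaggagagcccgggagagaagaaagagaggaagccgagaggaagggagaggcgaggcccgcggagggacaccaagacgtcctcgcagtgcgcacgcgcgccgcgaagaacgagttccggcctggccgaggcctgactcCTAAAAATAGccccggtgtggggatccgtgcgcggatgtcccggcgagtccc
*Hdac5* (chr11:102230123-102230422, minus strand): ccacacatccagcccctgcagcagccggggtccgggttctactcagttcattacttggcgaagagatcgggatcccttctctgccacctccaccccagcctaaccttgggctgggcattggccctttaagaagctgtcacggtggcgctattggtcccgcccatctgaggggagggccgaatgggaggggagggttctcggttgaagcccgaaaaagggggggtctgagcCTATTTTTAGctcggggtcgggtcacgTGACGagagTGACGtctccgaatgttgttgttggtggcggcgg
*Hdac4* (chr1:92180292-92180591, minus strand): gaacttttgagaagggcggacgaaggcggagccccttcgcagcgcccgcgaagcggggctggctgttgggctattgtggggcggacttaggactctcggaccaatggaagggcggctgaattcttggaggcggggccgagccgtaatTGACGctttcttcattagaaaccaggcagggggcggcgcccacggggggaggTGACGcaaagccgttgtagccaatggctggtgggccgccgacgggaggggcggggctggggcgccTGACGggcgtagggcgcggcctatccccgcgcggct
The capitals in *Mef2a* are a MEF2 site from base −2 to base 7, counting the start base as 0. In *Hdac5* the capitals are a MEF2 site from −20 to −11 and CRE half-sites from 7 to 11 and from 16 to 20. In *Hdac4* they are CRE half-sites from −103 to −99, from −51 to −47 and from 14 to 18, in a window whose start lies inside the GENCODE gene. Read on the strand that gives CTAAAAATAG, the MEF2 sites of *Mef2a* and *Hdac5* are the same 10 letters. That exact word, which was looked up after the windows had been seen, is in 0.11% of all windows. A match describes letters in a window and not a bound site.

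Levels of the members were first compared with one another in TPM, which are scaled to transcript length and library total. *Hdac5* was the most abundant at 22.1 ± 2.39 TPM (mean ± SD, n = 8 kidneys), followed by *Crtc2* at 14.6 ± 1.25, *Hdac7* at 12.4 ± 2.34 and *Mef2d* at 10.6 ± 2.23. *Mef2a* was at 7.42 ± 1.37 TPM, near the median of the 14326 genes that passed the filter on low counts (8.31 TPM). Below it lay *Crtc1* at 3.70 ± 0.544, *Crtc3* at 3.05 ± 0.434, *Hdac4* at 1.64 ± 0.280, *Mef2c* at 1.54 ± 0.586 and *Hdac9* at 0.105 ± 0.062 TPM. Every neighbor in this order was in the same order in 8 of 8 kidneys except 3 pairs (two-sided exact sign-flip permutation test, p = 0.0078, the smallest that 8 kidneys allow, adjusted p = 0.0117 over 9 pairs). *Crtc2* and *Hdac7* did not differ beyond their spread (6 of 8 kidneys, exact permutation p = 0.0859, adjusted p = 0.110), nor did *Hdac7* and *Mef2d* (6 of 8, exact permutation p = 0.141, adjusted p = 0.158) or *Hdac4* and *Mef2c* (5 of 8, exact permutation p = 0.453).

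**Figure D1:**
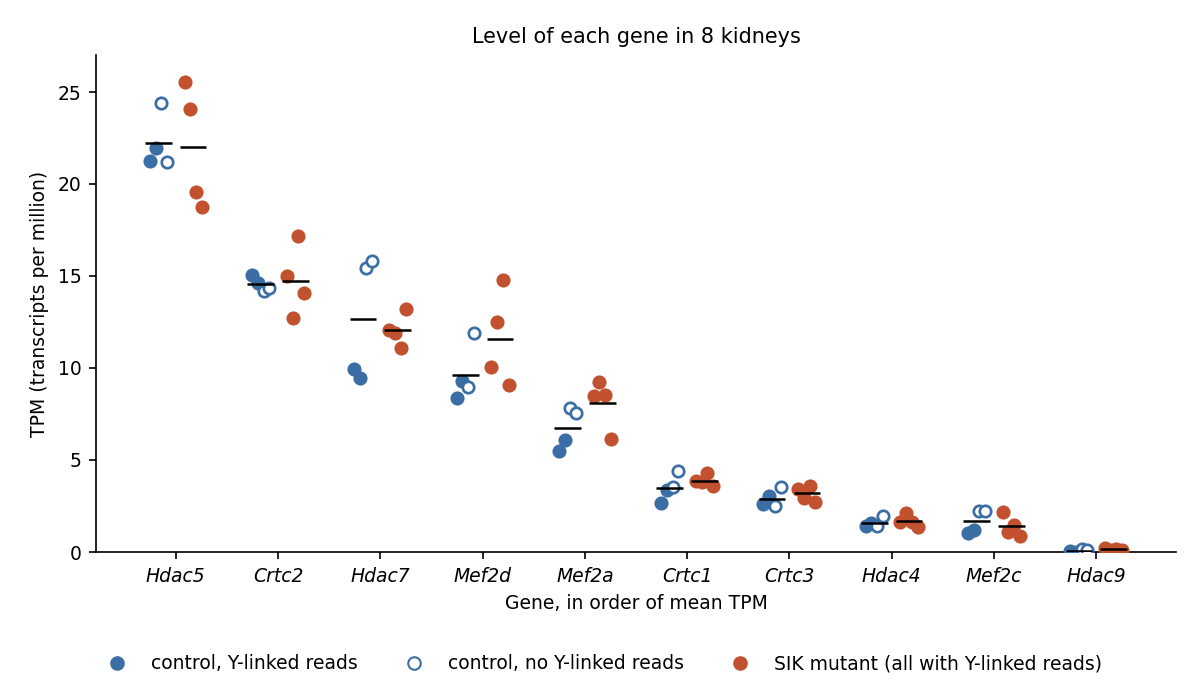
Level in TPM (vertical axis) of each of the 10 genes in each of the 8 kidneys, ordered by mean TPM; points are kidneys, horizontal lines are group means, and open points are the 2 controls without Y-linked reads. *Hdac5* lies between 18.8 and 25.5 TPM in all 8 kidneys, and *Hdac9* does not exceed 0.20 TPM.

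Each family was carried by 1 or 2 of its genes. *Crtc2* made up 69.5% of CRTC transcripts in controls and 67.5% in SIK mutants, with summed CRTC levels of 21.0 ± 0.965 and 21.8 ± 2.46 TPM (mean ± SD, n = 4 each). Among class IIa HDACs, *Hdac5* held 61.2% and 61.1% and *Hdac7* 34.2% and 33.8% of summed levels of 36.5 ± 4.40 and 35.9 ± 3.45 TPM. *Mef2d* held 53.5% and 54.8% and *Mef2a* 37.4% and 38.5% of summed MEF2 levels of 18.0 ± 2.95 and 21.1 ± 3.73 TPM. These shares are descriptions and were not tested.

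Between genotypes, none of the 9 members that passed the filter on low counts was called. In the edgeR quasi-likelihood test over 14326 genes, 0 of 9 had an FDR under 0.05, against a background of 0% of all genes, and 0 of 9 had an unadjusted p under 0.05, against 6.36% of all genes. DESeq2 likewise called 0 members at an adjusted p under 0.05, and it called 67 of all genes. Of the 9, 5 had a positive and 4 a negative log2 fold change, with a median of 0.0048 beside −0.0038 for all tested genes. The groups overlapped for all 9, against a background of 4.03% of tested genes whose groups did not overlap.

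**Figure D2:**
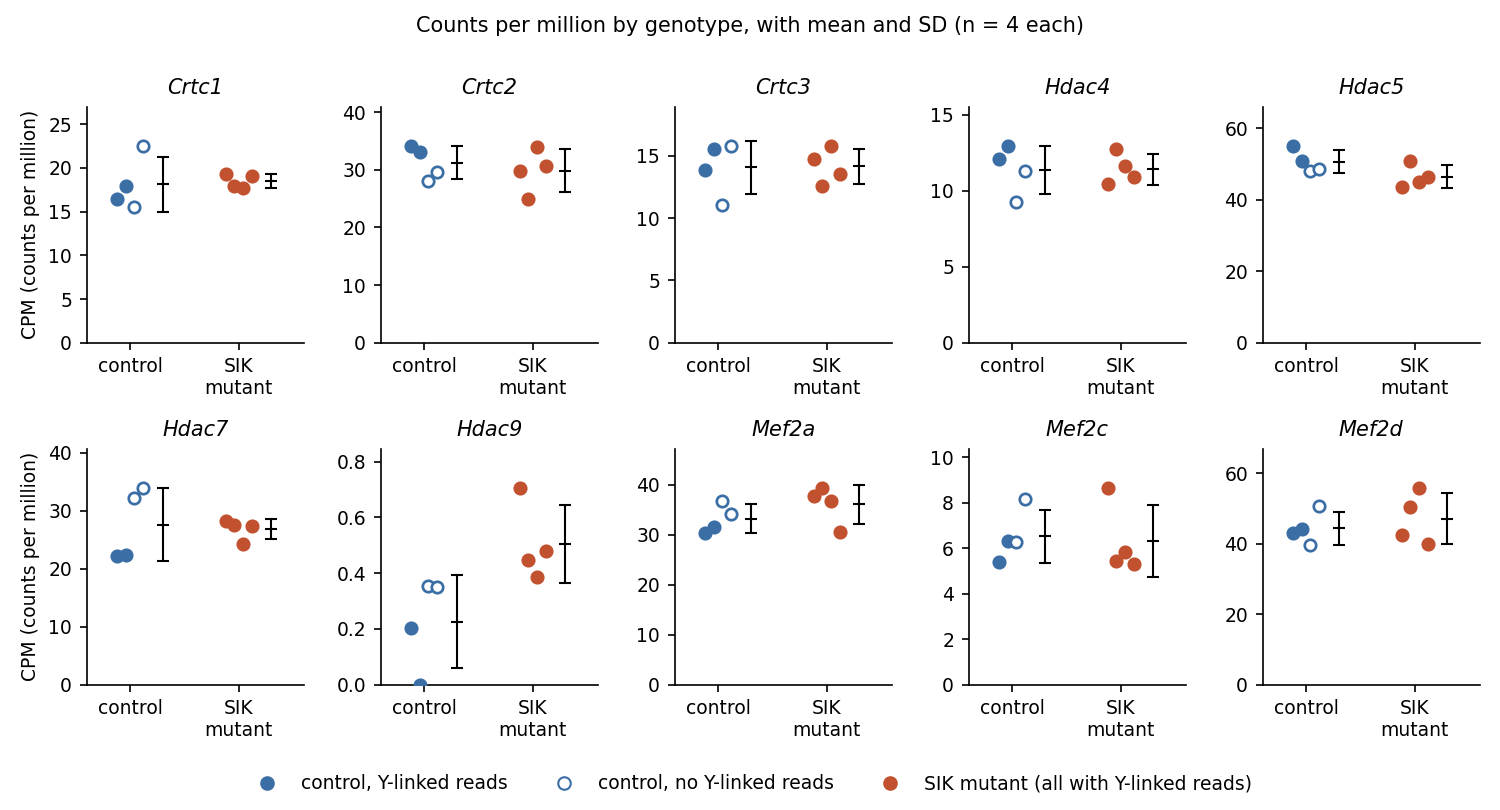
CPM (vertical axes, each from 0) of each gene in 4 control and 4 SIK mutant kidneys; points are kidneys, open points are controls without Y-linked reads, and bars are the mean and SD of each group. The groups overlap for every gene but *Hdac9*, which stays below 0.8 CPM.

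The CRTC coactivators bind CREB and raise transcription of its cyclic AMP-responsive targets. *Crtc1*, best known from neurons and located at chr8:70382355-70439579, was at 16.4, 18.0, 15.5 and 22.5 CPM in controls and at 19.3, 17.9, 17.7 and 19.1 in SIK mutants. The highest and the lowest kidney were both controls, and every mutant lay between them. The log2 fold change was 0.031 (SE 0.125, edgeR FDR = 0.985), with a 95% interval from −15.8% to 24.0%.

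*Crtc2*, the coactivator known for control of glucose production in the liver and the major CRTC here (chr3:90254163-90264125), was at 34.1, 33.1, 28.0 and 29.7 CPM in controls and at 29.8, 25.0, 33.9 and 30.7 in SIK mutants. The mutants held the lowest kidney and 1 near the top of the controls. The log2 fold change was −0.064 (SE 0.112, edgeR FDR = 0.949), and the interval ran from −19.6% to 13.7%. *Crtc3*, known from adipose tissue (chr7:80586627-80688877), was at 13.9, 15.5, 11.1 and 15.8 CPM in controls and at 14.7, 12.6, 15.8 and 13.6 in SIK mutants. Means were 14.1 ± 2.15 and 14.2 ± 1.40 CPM, and the interval of the difference ran from −18.4% to 24.4% (edgeR FDR = 0.994).

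Class IIa HDACs have little deacetylase activity of their own and act as repressors of MEF2 by bringing in the HDAC3 corepressor complex. *Hdac4*, a regulator of cartilage maturation (chr1:91928779-92195699), was at 12.1, 12.9, 9.25 and 11.3 CPM in controls and at 10.4, 12.8, 11.6 and 10.9 in SIK mutants. Both groups averaged 11.4 CPM, and the interval of the difference ran from −18.3% to 23.3% (edgeR FDR = 0.996).

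*Hdac5*, a stress-responsive repressor studied in heart and bone and the most abundant member (chr11:102194432-102230166), had the lowest p of the 9. It was at 55.0, 50.9, 48.1 and 48.6 CPM in controls and at 43.5, 50.8, 44.9 and 46.5 in SIK mutants. Of the mutants, 3 lay below every control and the other lay within the control range. Means were 50.6 ± 3.16 and 46.4 ± 3.17 CPM, the log2 fold change was −0.12 (SE 0.082, edgeR p = 0.159, FDR = 0.850; two-sided exact permutation p = 0.114), and the interval ran from −19.2% to 4.13%. Without controls 3 and 4 the difference was −0.18 on the log2 scale (edgeR FDR = 0.523) and the groups did not overlap, which was so for 21.8% of all genes tested there and 11.5% in the same direction.

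*Hdac7*, the class IIa HDAC of endothelium and developing T cells (chr15:97792664-97844502), was the member whose genotype difference moved most when controls 3 and 4 were left out. It was at 22.1, 22.3, 32.1 and 34.0 CPM in controls and at 28.2, 27.6, 24.3 and 27.3 in SIK mutants. All mutants lay between the 2 controls with Y-linked reads and the 2 without. Over 8 kidneys the log2 fold change was −0.043 (SE 0.152, edgeR FDR = 0.979). Without controls 3 and 4 it was 0.28 (SE 0.106, 95% interval 0.041 to 0.53, edgeR p = 0.027, FDR = 0.387; two-sided exact permutation p = 0.133, the smallest that 2 against 4 allows), which did not pass the threshold. The groups then did not overlap, with mutants higher, as for 10.3% of all genes. In that comparison 0 of 9 members had an FDR under 0.05, against 0.143% of all genes. At an unadjusted p under 0.05, 1 of 9 was higher, *Hdac7*, against 6.4% of all genes, and 0 were lower, against 4.74% (11.1% in either direction).

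Within the controls, *Hdac7* averaged 33.1 CPM in the 2 kidneys without Y-linked reads and 22.2 in the 2 with them, a ratio of 1.49. Both lay above the other 6 kidneys, as was so for 10.7% of all genes tested, and *Hdac7* was the only 1 of the 9 members whose level did not overlap between those kidneys and the other 6, against 23.8% of all genes. In a fit with a Y-linked covariate beside genotype, the Y-linked term had an FDR of 0.0193 for *Hdac7*, and *Hdac7* was the only 1 of the 9 members under 0.05, against 7.92% of all genes. The labels do not state sex, and with 2 such kidneys, both controls, sex and any other property they share cannot be told apart.

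The summed CPM of 5 endothelial markers (*Pecam1*, *Kdr*, *Cdh5*, *Tie1* and *Emcn*) was 175.6, 195.9, 238.1 and 264.9 in controls and 245.0, 213.6, 194.5 and 172.5 in SIK mutants. Like *Hdac7*, this sum was higher in the controls without Y-linked reads than in those with them, and 4 of the 5 markers were higher in both. Per 100 CPM of endothelial markers, *Hdac7* was at 12.6, 11.4, 13.5 and 12.8 in controls and at 11.5, 12.9, 12.5 and 15.8 in mutants. None of the 5 markers had an unadjusted p under 0.05 between genotypes. Other cell type markers also set controls 1 and 2 apart. The summed CPM of 6 adipocyte markers was 0 and 4.05 there, 217.1 and 31.7 in controls 3 and 4 and 114.0 to 191.8 in mutants, and that of 4 proximal tubule markers was 9764 and 10168 there, 6658 and 7392 in controls 3 and 4 and 6832 to 8242 in mutants. Markers higher in both controls 3 and 4 than in controls 1 and 2 were 5 of 6 for adipocyte but 1 of 4 for proximal tubule. They were 2 of 2 for thick ascending limb, 2 of 3 for podocyte, 3 of 4 for collecting duct and 3 of 6 for stroma and smooth muscle. They were 1 of 5 for immune cells, 0 of 2 for distal convoluted tubule and 0 of 4 for skeletal muscle. The share of all genes higher in both controls 3 and 4 than in controls 1 and 2 was not counted. These marker counts, the endothelial one included, thus have no background to be read against. Over all genes, chi-square per degree of freedom was 35.6 to 49.5 between controls 1 or 2 and controls 3 or 4, and 9.34 and 9.07 within these pairs. The part of these cell types in the *Hdac7* values was not tested. In whole tissue, fewer cells of a type and less RNA per cell cannot be told apart.

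**Figure D3:**
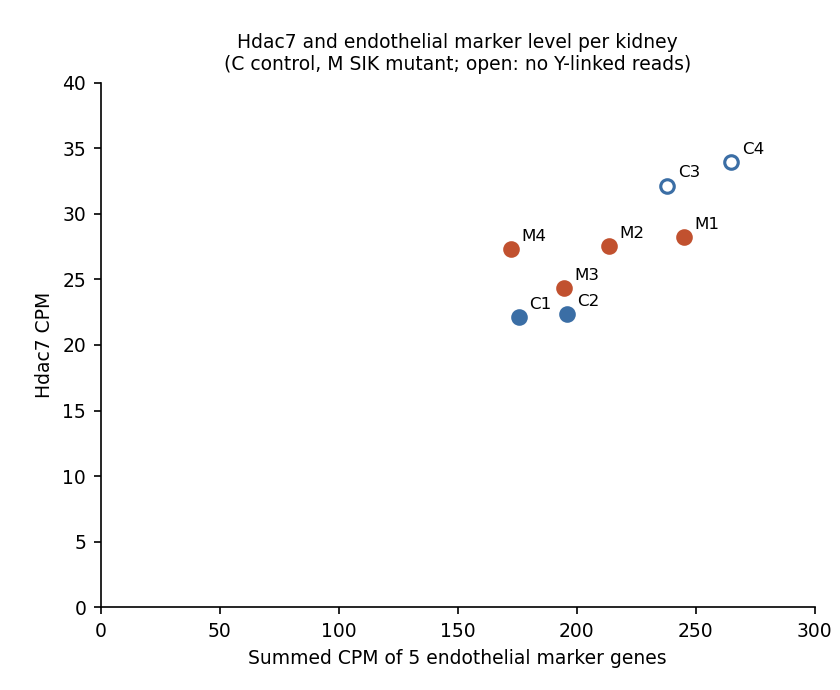
*Hdac7* CPM (vertical axis) against the summed CPM of 5 endothelial markers (horizontal axis) in the 8 kidneys (C control, M SIK mutant, with replicate number; open points have no Y-linked reads). The 2 controls without Y-linked reads have the highest *Hdac7* values, 32.1 and 34.0 CPM, and SIK mutant 4 has the lowest marker sum, 172.5 CPM.

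*Hdac9*, known from muscle (chr12:34047580-34917095), was near the limit of detection and was removed by the filter. Its counts were 2, 0, 4 and 4 in controls and 8, 5, 4 and 5 in SIK mutants. In CPM the groups did not overlap (0 to 0.352 in controls and 0.387 to 0.706 in mutants, two-sided exact permutation p = 0.0286, the smallest that 4 against 4 allows), but the lowest mutant and the highest controls had the same 4 counts. Of the genes that passed the filter, 1.65% did not overlap in this direction. That set leaves *Hdac9* out, and the share among genes of so few counts was not counted. Without the filter its log2 fold change was 1.10 (SE 0.652, edgeR FDR = 0.741). These values rest on 10 counts in all controls and 22 in all mutants.

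MEF2 factors bind DNA as dimers and drive genes of muscle, vessels and neurons when class IIa HDACs leave them. *Mef2a*, widely expressed (chr7:67231163-67372858), was at 30.4, 31.5, 36.8 and 34.2 CPM in controls and at 37.8, 39.4, 36.8 and 30.5 in SIK mutants. Of the mutants, 2 lay above every control and the lowest mutant lay beside the lowest control. Means were 33.3 ± 2.86 and 36.1 ± 3.90 CPM, and the log2 fold change was 0.12 (SE 0.104, edgeR FDR = 0.897), with an interval from −7.59% to 27.7%. Without controls 3 and 4 it was 0.23 (edgeR FDR = 0.521).

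*Mef2c*, required in heart and vessel development (chr13:83504034-83667080), was at 5.38, 6.32, 6.25 and 8.14 CPM in controls and at 8.65, 5.44, 5.81 and 5.29 in SIK mutants. A single mutant kidney was the highest of all 8 and the other 3 sat at the low end. With an SE of 0.206 this gene had the widest interval of the 9, from −29.9% to 32.9% (log2 fold change −0.051, edgeR FDR = 0.985). Per 100 CPM of endothelial markers it was at 3.06, 3.23, 2.63 and 3.07 in controls and at 3.53, 2.55, 2.99 and 3.07 in mutants.

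*Mef2d*, the most abundant MEF2 gene here (chr3:88142372-88172086), was at 42.9, 44.1, 39.7 and 50.8 CPM in controls and at 42.5, 50.3, 55.8 and 39.8 in SIK mutants. The mutants covered a wider range than the controls, with SDs of 7.31 and 4.65 CPM. The log2 fold change was 0.086 (SE 0.124, edgeR FDR = 0.944), with an interval from −12.5% to 28.6%.

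Without controls 3 and 4, the sign of the log2 fold change turned for 4 of the 9 members: *Crtc3* to −0.044, *Hdac4* to −0.12, *Hdac7* to 0.28 and *Mef2c* to 0.12. It stayed for *Crtc1* at 0.11, *Crtc2* at −0.16, *Hdac5* at −0.18, *Mef2a* at 0.23 and *Mef2d* at 0.12. With library totals in place of TMM factors in the same 6 kidneys, the sign did not turn for *Crtc3*, at 0.094, and *Hdac4*, at 0.018. The median of all genes was 0.15 there, beside 0.011 with TMM factors, and both genes lay below that median in either setting. The FDR of the 9 values with TMM factors ran from 0.387 to 0.924 in edgeR.

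**Figure D4:**
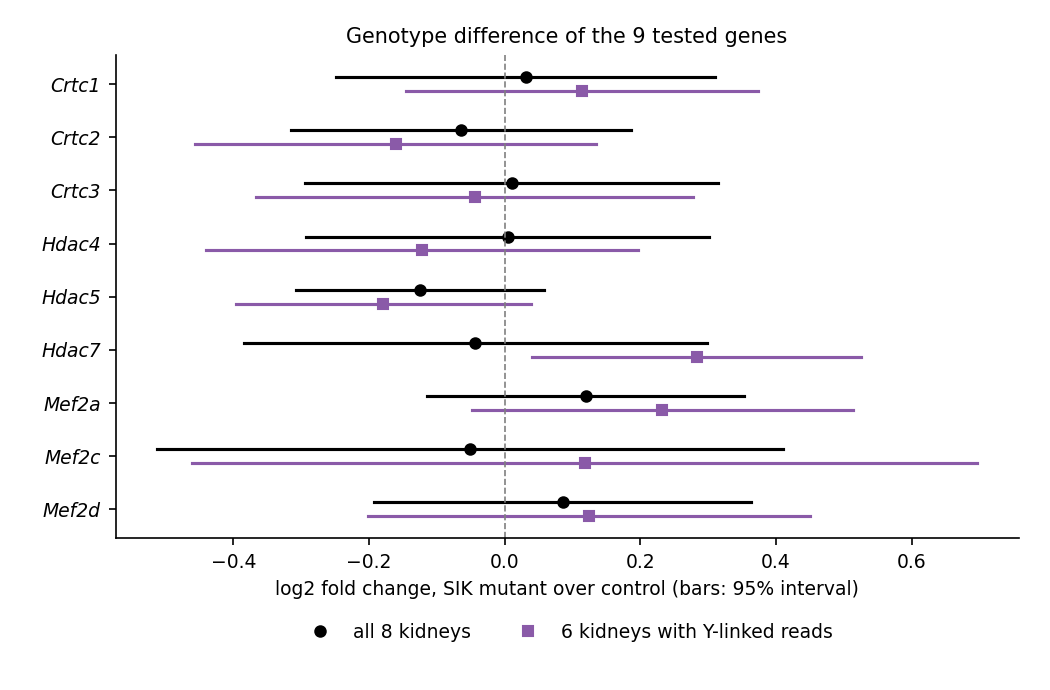
Log2 fold change, SIK mutant over control, with 95% interval for the 9 tested members in all 8 kidneys (circles) and in the 6 kidneys with Y-linked reads (squares); the dashed line marks 0. The only interval that leaves 0 out is that of *Hdac7* in 6 kidneys, 0.041 to 0.53, whose FDR was 0.387.

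Genes that act on these proteins or with them were also counted from fixed lists, and 0 genes of any list had an FDR under 0.05. Of 17 tested kinases (SIKs, their activator *Stk11* and relatives), 3 were higher and 1, *Sik3*, lower at an unadjusted p under 0.05 (edgeR), against 2.76% and 3.59% of all genes. *Sik1* and *Sik3* are themselves floxed genes, so their calls are not a result about the other kinases. The 3 higher ones were *Sik1*, *Camk2d*, a calcium/calmodulin-dependent kinase gene (19.8 CPM in controls and 23.5 in mutants, edgeR FDR = 0.742), and *Prkd1*, a protein kinase D gene (4.96 and 6.82 CPM, edgeR FDR = 0.768), and the last 2 are named after their values were seen. Without controls 3 and 4, *Sik1* and *Prkd1* were higher and *Sik3* lower at that level, against 6.4% and 4.74% of all genes tested there. Of 7 genes for 14-3-3 proteins, which hold phosphorylated CRTCs and class IIa HDACs in the cytoplasm, 1 was higher, against 2.76% of all genes. That gene, *Ywhag*, averaged 63.2 CPM in controls and 73.2 in mutants (log2 fold change 0.21, FDR = 0.775 in edgeR; two-sided exact permutation p = 0.0571). When controls 3 and 4 were left out, the gene higher at that level was *Sfn*, named after its values were seen, in place of *Ywhag*, against 6.4% of all genes. The 8 phosphatase genes had a median log2 fold change of −0.050, and 0 passed an unadjusted p of 0.05 in either direction. The lowest p among them belonged to *Ppp3cc*, a catalytic subunit of calcineurin (log2 fold change −0.21, edgeR FDR = 0.895, and −0.35 without controls 3 and 4).

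The CREB partners of CRTCs and the HDAC3 corepressor genes also held 0 genes at an unadjusted p under 0.05 in edgeR over 8 kidneys. Without controls 3 and 4, 1 CREB partner was higher at that level, *Creb1*, named after its values were seen, against 6.4% of all genes tested there. All 5 CREB partners had positive log2 fold changes, the lowest only 0.00037, with a median of 0.10 beside −0.0038 for all tested genes. The highest was *Crem*, a CREB relative, at 0.19 (edgeR FDR = 0.879, and 0.092 without controls 3 and 4). All 6 corepressor genes were positive too, the lowest at 0.011, with a median of 0.096. The highest was *Ncor1*, the scaffold of the complex, at 0.31 (edgeR FDR = 0.794, and 0.14 without controls 3 and 4). These shared signs were not tested. The 7 other classical HDACs had a median of 0.00098, and *Hdac3* among them is also in the corepressor list. The lowest p was that of *Hdac8* (log2 fold change −0.15, edgeR FDR = 0.909, and −0.24 without controls 3 and 4). Of 5 tested MEF2 target genes, 2 were positive, and *Mef2b*, listed with them, was not tested. *Nr4a1*, a nuclear receptor gene that answers both CREB and MEF2, was at 2.95 CPM in controls and 4.76 in mutants (log2 fold change 0.69, edgeR FDR = 0.794). SIK mutant 1 was at 8.12 CPM and the other mutants at 3.30, 3.68 and 3.94, inside the control range of 2.20 to 4.29, and without SIK mutant 1 the log2 fold change of *Nr4a1* was 0.30.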

How the data were processed

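Whole-kidney RNA from 8 mice was sequenced on a BGISEQ500. Per the submitters' processing notes, FastQC, STAR 2.7.2b, RSEM 1.3.0 and DESeq2 were used with build mm10. The authors deposited, for each kidney, RSEM expected counts, which are not normalized, and TPM, scaled to gene length and library total. Strand use in counting is not given in the sources used here. *Hdac7* overlaps *Slc48a1* and *Mef2a* overlaps *Lysmd4* on the opposite strand. RSEM's posterior standard deviation of the count was 0 for all 10 members. Of 55401 gene IDs, 55141 matched GENCODE M21 (GRCm38) without version.

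Expected counts were rounded and tested with edgeR 4.0.16 (quasi-likelihood, R 4.3.3, TMM, filterByExpr, Benjamini-Hochberg over 14326 genes). CPM differences of single genes were tested by two-sided exact permutation over 70 assignments, and TPM order by sign flips with a pseudocount of 0.05 TPM. Alternatives were RLE factors, DESeq2 1.42.0, limma-trend (limma 3.58.1), other filters, a length offset, a replicate block, a Y-linked covariate, the kidneys with Y-linked reads and leaving out each kidney. Library totals without TMM factors and DESeq2 on 6 kidneys were added after seeing the data. Members and lists were chosen with earlier results of these data known. All members were named. Other genes were the SIK genes, list genes with an unadjusted p under 0.05 (added after seeing the data), the lowest p of each list and the 3 genes most like the leading member of each family. The fit was tested on simulated data. The lowest chi-square per degree of freedom of any of 12 replicate pairs was 9.06, so no library was a duplicate. Floors cover counting error only, while the intervals of fold changes come from the edgeR fit and include the spread between kidneys.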

Additional observations from a re-analysis of the deposited data

Results flagged for a closer look

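*Mef2c* in SIK mutant replicate 1, at 8.65 CPM, stood apart from the other 3 kidneys of its group, at 5.29 to 5.81 CPM. The gap was 0.845 of the range of the group. In all, 20 groups of 4 kidneys were examined in this way, and chance flags about 1 in 20. The same kidney had the highest summed CPM of 6 stroma and smooth muscle markers of all 8, 430.7, beside 156.0 to 262.6 in the other mutants, and the highest endothelial sum of the mutants, 245.0. Its immune sum, 105.8, was also the highest of all 8, and its podocyte sum, 221.1, the highest of the mutants. Its proximal tubule and collecting duct sums, 6832 and 455.8, were the lowest of the mutants. Per 100 CPM of endothelial markers its *Mef2c* was at 3.53, the highest of all 8. The part of these cell types in the *Mef2c* value was not tested.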

How the results depend on the processing

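No member was called at an FDR under 0.05 under any of the 20 alternatives. Over all genes the count of calls, 0, became 67 with DESeq2, 4 with limma-trend on log2(TPM + 1), 9 without a filter, 17 with the Y-linked covariate, 21 without controls 3 and 4, 188 with DESeq2 on the remaining 6 kidneys and 29 on them without TMM factors. It was 0 to 1 when each kidney was left out. *Hdac5* and *Mef2a* kept their sign in all 20, at −0.19 to −0.023 and 0.075 to 0.38. On the 6 kidneys, *Hdac7* turned to 0.28 (0.28 with the covariate, 0.28 with DESeq2, 0.42 without TMM factors) and *Mef2c* to 0.12 (0.11, 0.12 and 0.26). *Crtc3* turned to −0.044 (−0.057 with the covariate, −0.047 with DESeq2, but 0.094 without TMM factors) and *Hdac4* to −0.12 (−0.14 and −0.12, but 0.018 without TMM factors, and −0.030 with the length offset). *Crtc2* turned to 0.0096 with limma-trend on TPM. Those 6 without TMM factors moved the median of all genes to 0.15, from 0.011 with them. The factors left out were 0.903 and 0.933 in controls 1 and 2. They were 1.05, 1.05, 1.02 and 0.957 in SIK mutants 1 to 4. The values without TMM factors, 0.42 for *Hdac7* and 0.26 for *Mef2c*, include this shift of all genes. What set the factors apart, and the cause of the turns in sign, were not tested.

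Leaving out each kidney gave −0.037 to 0.15 for *Crtc1*, −0.13 to 0.012 for *Crtc2*, −0.089 to 0.071 for *Crtc3*, −0.084 to 0.071 for *Hdac4*, −0.14 to 0.071 for *Hdac7*, −0.24 to 0.074 for *Mef2c* and −0.0057 to 0.16 for *Mef2d*. Deviations of log2 CPM from the group mean correlated at −0.14, 0.057, 0.024 and −0.25 between same-numbered control and mutant kidneys. They correlated at −0.11 to 0.25 between the other control and mutant kidneys. The numbers thus showed no pairing, but so few values cannot exclude shared litters. With the replicate block 0 genes were called. The order of levels kept 9 of 9 pairs with counts per kilobase and 8 of 9 in controls only. *Hdac9* had at most 8 counts in a kidney.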

Other observations

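The genes whose log2 CPM followed the leading member of each family most closely over the 8 kidneys were *Gm3716* (r = 0.966), *Mtus1* (0.953) and *Hps6* (0.944) for *Crtc2*, *Spata17* (0.954), *Trappc4* (0.950) and *Dctn3* (0.934) for *Hdac5*, and *Dhx33* (0.985), *Wdfy3* (0.970) and *Il17rd* (0.969) for *Mef2d*. These were picked as the highest of all tested genes, share the same 8 libraries and have no test.

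RSEM's abundance-weighted transcript length varied most for *Hdac9* (coefficient of variation 26.7% over 8 kidneys) and *Mef2c* (19.5%, from 3261 to 6134 bases) and least for *Crtc3* (0.944%). TPM of *Mef2c* therefore moves with both its counts and its estimated length.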
